A study of Mus musculus with 3 samples.

Results

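The genes described here are 10 adipogenic regulators and markers, taken by name from a table of 56833 genes. They are the regulators Zfp423, Ebf2, Cebpd, Klf15, Pparg and Cebpa, and the fat cell products Fabp4, Lpl, Plin2 and Adipoq. Their levels were read in 3 bulk RNA libraries from mouse ankle synovium. The cells came from mice of the genotype Efhd1CreER; Ai9, in which tdTomato labels cells in which the Efhd1-driven, inducible Cre has been active. The sorted tdTomato-positive cells, which the labels call telocytes, were grown for 24 h on collagen-coated plates. Plate stiffness was 0.2 kPa in the soft culture, 8 kPa in the intermediate and 64 kPa in the stiff. All 3 libraries share the genotype, the tissue, the sort and the collagen coating, and no age or treatment of the mice with an inducer is given in the labels. The series asks how stiffness acts on the differentiation of these cells into fibroblasts. There was 1 library per stiffness, so no test of the condition was possible and no difference below has a replicate check.

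Adipogenesis is the path by which a mesenchymal precursor becomes a fat cell. Commitment factors such as ZFP423 and EBF2 mark precursors, C/EBP beta and delta act early after induction, and PPAR gamma and C/EBP alpha then sustain each other and switch on the genes for lipid uptake, lipid storage and adipokines. Stiff substrates and a contractile cell shape are known to oppose this path in mesenchymal cells in culture, and several of its products, FABP4, LPL, PLIN2 and PPAR gamma among them, are also made by macrophages.

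Values in a row below are given in the order soft, intermediate, stiff. The libraries held 25487064, 28081600 and 26474862 reads. The table gives normalized counts, which are reads divided by a size factor per library, and 1 read was worth 1.03, 0.943 and 1.03 of them. Ratios are log2 of normalized counts plus 1. The 95% intervals beside them are exact Clopper-Pearson intervals, computed without the added 1, and cover counting error only. Of 6 markers used for telocytes, Pdgfra stood at 5884, 6298 and 5118 normalized counts, Cd34 at 235, 242 and 318 and Foxl1 at 238, 233 and 186, where the stiff to soft ratio was -0.36 (-0.65 to -0.07). The other 3 left few reads: Kit had 41, 41 and 44, Gli1 9, 12 and 8, and Efhd1 itself 10, 5 and 3. Transcripts of macrophages were abundant in all 3 libraries and most abundant in the stiff one. The summed level of 14 macrophage markers was 29104, 36421 and 64533 normalized counts, and none of the 14 was at 0. Fewer cells of a type and less RNA per cell cannot be told apart in bulk RNA.

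The promoters of 3 of the genes are shown because they carry the contrast described below: Zfp423 had the highest and Adipoq the lowest stiff to soft ratio, and Pparg is the central regulator. The RefSeq promoter table (GRCm38.p6) held 9 promoters for 6 of the 10 genes, each of 300 bases from 250 before to 50 after the start, and all 9 were found once in GRCm39 by exact match. Capitals mark matches, on either strand, to any of 8 words. They were the GC box with the letters GGGCGG, the CCAAT box, the TATA box with the letters TATAAA, the C/EBP site with the letters TTGCNNAA and the CRE core with the letters TGACG. The TEAD site with the letters GGAATG, the DR1 element bound by PPAR gamma with RXR, with the letters AGGTCANAGGTCA, and the CArG box were searched too. No 2 matches overlapped in these promoters. The Adipoq promoter lies at chr16:22965036-22965335 on the plus strand, and its start is that of the canonical transcript. The printed promoter of Zfp423 lies at chr8:88686174-88686473 on the minus strand, with a start 1066 bases downstream of the canonical one. For Pparg, the promoter nearest the canonical start lies at chr6:115339060-115339359 on the plus strand. An internal promoter lies at chr6:115398777-115399076, 59774 bases downstream of the canonical start, in the region from which the adipocyte-enriched form PPAR gamma 2 is transcribed.

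Adipoq: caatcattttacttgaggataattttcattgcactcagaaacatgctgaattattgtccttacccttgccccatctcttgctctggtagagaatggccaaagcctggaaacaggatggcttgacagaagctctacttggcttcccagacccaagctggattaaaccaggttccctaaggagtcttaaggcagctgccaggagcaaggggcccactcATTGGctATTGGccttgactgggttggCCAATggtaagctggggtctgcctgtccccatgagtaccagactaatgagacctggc
Zfp423: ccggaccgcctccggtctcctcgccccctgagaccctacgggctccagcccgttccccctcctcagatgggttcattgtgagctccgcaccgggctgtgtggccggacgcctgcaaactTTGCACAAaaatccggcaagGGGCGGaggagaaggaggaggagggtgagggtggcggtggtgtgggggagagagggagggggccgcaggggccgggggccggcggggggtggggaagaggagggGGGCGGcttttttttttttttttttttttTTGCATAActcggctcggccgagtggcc
Pparg, near the canonical start: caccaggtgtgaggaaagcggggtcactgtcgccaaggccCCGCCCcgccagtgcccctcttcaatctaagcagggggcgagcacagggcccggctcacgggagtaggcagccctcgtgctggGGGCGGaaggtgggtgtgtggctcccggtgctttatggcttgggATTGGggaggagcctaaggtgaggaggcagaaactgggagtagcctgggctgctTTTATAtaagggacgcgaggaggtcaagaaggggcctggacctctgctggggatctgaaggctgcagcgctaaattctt
Pparg, internal: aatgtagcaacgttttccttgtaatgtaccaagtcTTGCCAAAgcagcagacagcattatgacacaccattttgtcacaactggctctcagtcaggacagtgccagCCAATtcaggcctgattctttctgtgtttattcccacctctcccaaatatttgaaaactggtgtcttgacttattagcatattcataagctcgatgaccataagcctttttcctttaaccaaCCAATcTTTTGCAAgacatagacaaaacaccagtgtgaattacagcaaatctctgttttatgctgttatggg

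The Adipoq promoter held 3 CCAAT boxes and none of the other words. The printed Zfp423 promoter held 2 GC boxes and 2 C/EBP sites, while a further one, not printed, held 1 GC box and no C/EBP site. Near the canonical start Pparg had 2 GC boxes, 1 CCAAT box and 1 TATA box, and the internal promoter had 2 CCAAT boxes and 2 C/EBP sites but no GC box. A further Pparg promoter, not printed, held 1 GC box and none of the other words. Of 32851 RefSeq promoters of this length, 35.7% held a GC box, 37.4% a CCAAT box, 13.6% a TATA box, 10.8% a C/EBP site, 20.8% the CRE core, 14.7% a TEAD site, 0.0396% the DR1 element and 1.63% a CArG box. None of the 9 promoters held a TEAD site, a CArG box or a DR1 element, which says only that these letters are not in these windows. Gene-level counts do not separate the transcripts from the Pparg promoters.

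Most of the 10 genes differed little between stiffness levels, and those that differed went in opposite directions. In the deposited scaling, Adipoq, Ebf2 and Fabp4 were lower and Zfp423, Lpl and Plin2 higher between stiff and soft, with counting intervals clear of 0. The intervals of Pparg, Cebpa, Cebpd and Klf15 held 0 there. Scaling to total reads, the upper quartile or housekeeping genes shifts stiff to soft ratios by -0.06, -0.06 and -0.17. Each shift takes the intervals of Pparg and Cebpa, with upper ends of 0.05 and 0.02, below 0. The largest does so for Cebpd too, with an upper end of 0.11. Of the 9 genes whose mean over the libraries reached 50 normalized counts, 1 was higher by a log2 ratio of at least 0.5, Zfp423, and none was lower. Over all 11873 genes at that mean, 11.8% were higher and 3.77% lower by that much. The median ratio of the 9 genes was -0.05, beside 0.00 over all genes. The count depends on the setting: relative to housekeeping genes 1 was higher and 2 lower, and with the trend of the ratios with transcript length and GC content subtracted there were 0.

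Between intermediate and soft no member passed that ratio in either direction, where 3.94% of all genes were higher and 0.657% lower. The median of the 9 genes was -0.02, beside 0.01 over all genes. Between stiff and intermediate Zfp423 alone passed, upward, where 5.42% of all genes were higher and 3.42% lower, and the medians were -0.12 and 0.01. At 0.51 this call was lost with a pseudocount of 10 (0.45), under the 3 other scalings (0.37 to 0.49) and with the length and GC trend subtracted (0.28). Klf15 is the gene left out by the minimum mean. The 3 comparisons share libraries in pairs, so they are not independent of each other.

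**Figure D1:**
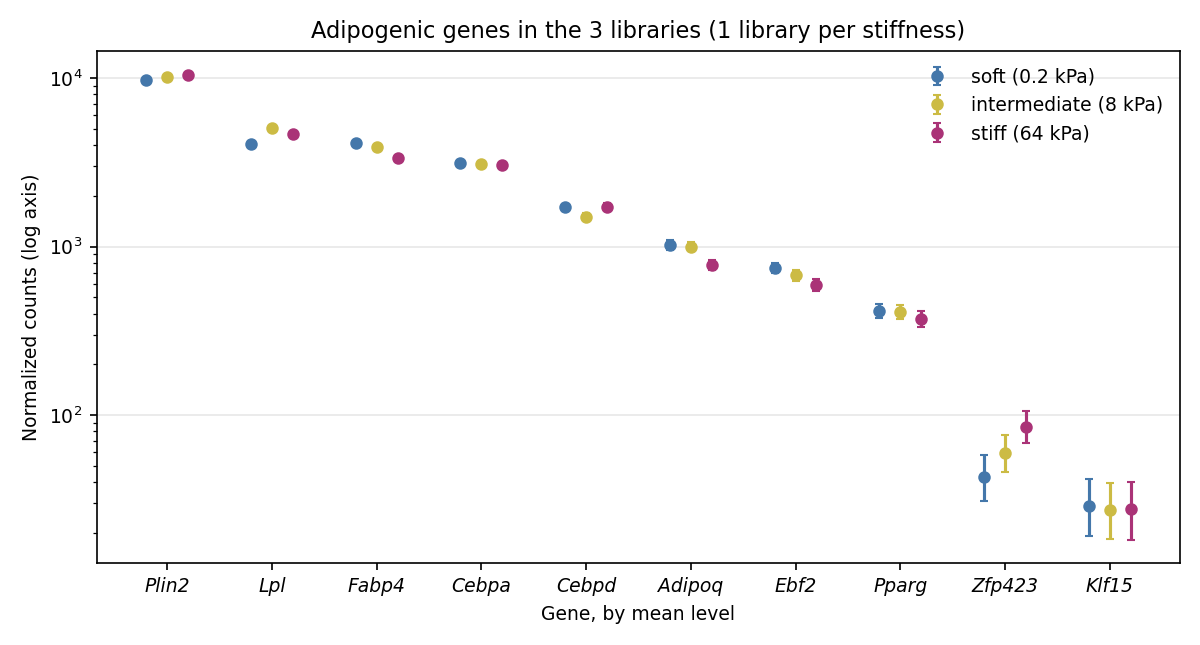
Normalized counts (log axis) of the 10 genes in the soft, intermediate and stiff libraries, 1 library each, with bars for exact 95% Poisson intervals (counting error only). Zfp423 stands higher in the stiff library, at 85.1 against 43.1 in the soft one, and Adipoq lower, at 778 against 1021.

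The regulators of commitment moved apart. ZFP423 is a zinc-finger protein that fixes preadipocyte fate and promotes Pparg expression. Its gene spans 88388438 to 88687289 on the minus strand of chromosome 8 (GRCm39, GENCODE vM39), with 8 exons in the canonical transcript. Zfp423 had 42, 63 and 83 reads, which is 43.1, 59.4 and 85.1 normalized counts. The soft library was the lowest and the stiff one the highest. Its log2 ratio of stiff to soft was 0.97 (95% counting interval 0.43 to 1.55), above that of 96.5% of all genes. The interval of the intermediate to soft step, 0.45 (-0.12 to 1.06), held 0, and that of stiff to intermediate was 0.51 (0.03 to 1.02). The call depends on the length and GC trend: Zfp423 has a canonical transcript of 5973 bases with 58.8% GC, and the 200 genes nearest in both had a median stiff to soft ratio of 0.54. With that median subtracted its ratio was 0.43.

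EBF2, an early B cell factor, marks precursors of brown and beige fat cells. Its gene, of 16 canonical exons, spans 67470736 to 67668394 on the plus strand of chromosome 14. Ebf2 stood at 746, 675 and 590 normalized counts, highest on soft and lowest on stiff plates. The stiff to soft ratio was -0.34 (-0.50 to -0.18), below that of all but 8.94% of genes, and it was -0.29 with the length and GC median subtracted. The first step, at -0.14 (-0.30 to 0.01), was within counting error, and the second was -0.19 (-0.36 to -0.03). Of its relatives, Ebf1, which is itself adipogenic, stood at 1538, 1548 and 1816 normalized counts, highest on stiff plates. Ebf3 stood at 476, 528 and 477.

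The early inducer Cebpd, which encodes C/EBP delta, was lowest in the intermediate library. It had 1711, 1501 and 1723 normalized counts. The soft and stiff values lay within counting error of each other, at a ratio of 0.01 (-0.09 to 0.11), whose sign changed under 4 of the 6 other settings tried. The intermediate library was lower than the soft one by a ratio of -0.19 (-0.29 to -0.09). The stiff to intermediate ratio was 0.20 (0.10 to 0.30), but 0.06 relative to housekeeping genes, outside that interval. Klf15, a Krüppel-like factor that is induced by glucocorticoids and promotes Pparg expression, was covered by only 28, 29 and 27 reads. Its stiff to soft interval ran from -0.87 to 0.76, so a difference inside that range was not detectable at this depth.

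The paired master regulators differed little in the deposited scaling. Pparg, the nuclear receptor required for fat cell formation, lies at 115337675 to 115468268 on the plus strand of chromosome 6. It had 405, 433 and 363 reads, or 415, 408 and 372 normalized counts. The stiff library was the lowest. In the deposited scaling the interval of the stiff to soft ratio of -0.16 ran from -0.37 to 0.05. The ratio was -0.21 scaled to total reads, -0.22 scaled to the upper quartile and -0.33 relative to housekeeping genes. As given above, the Pparg interval was negative throughout under each of these other scalings. With the length and GC median subtracted the Pparg ratio was -0.06. Cebpa, which encodes C/EBP alpha, had 3136, 3093 and 3027 normalized counts. Its stiff to soft ratio was -0.05 (-0.12 to 0.02), or -0.22 relative to housekeeping genes and -0.15 with the length and GC median subtracted, both outside that interval.

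**Figure D2:**
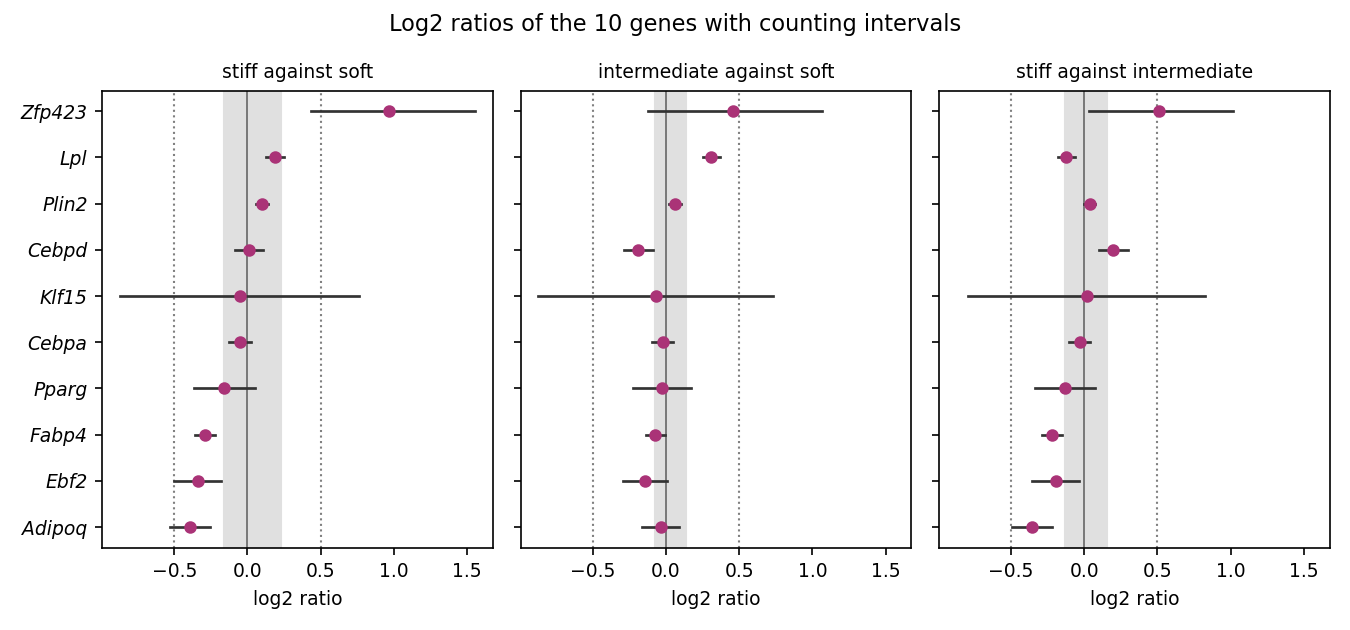
Log2 ratios of the 10 genes in the 3 comparisons (points) with exact 95% counting intervals (lines). Grey bands span the middle 50% of all 11873 genes and dotted lines mark 0.5 in size: only Zfp423 passes the line, at 0.97 between stiff and soft and 0.51 between stiff and intermediate.

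Among the fat cell products, Adipoq and Fabp4 were lowest in the stiff library. Adipoq encodes adiponectin, a hormone secreted by fat cells, and spans 22964106 to 22976810 on the plus strand of chromosome 16. It stood at 1021, 997 and 778 normalized counts, so the stiff library was low beside the other two. The stiff to soft ratio was -0.39 (-0.53 to -0.25), a level 23.8% lower, and 6.77% of all genes lay below it. Most of the difference was in the second step, at -0.36 (-0.49 to -0.22), while the first was -0.03 (-0.16 to 0.09). Subtracting the length and GC median left -0.30 for stiff to soft.

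FABP4 carries fatty acids inside fat cells and macrophages. Its gene lies at 10268785 to 10273737 on the minus strand of chromosome 3, with 4 canonical exons. Fabp4 stood at 4089, 3890 and 3342 normalized counts, again highest on soft and lowest on stiff plates. Its stiff to soft ratio was -0.29 (-0.36 to -0.22), a level 18.3% lower, and -0.15 with the length and GC median subtracted. The steps were -0.07 (-0.14 to -0.01) and -0.22 (-0.29 to -0.15).

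Lpl and Plin2 were higher in the stiff than in the soft library. LPL, the lipoprotein lipase, frees fatty acids from circulating triglyceride, and its gene spans 69284603 to 69360100 on the plus strand of chromosome 8. Lpl was highest in the intermediate library, with 4073, 5048 and 4639 normalized counts. The intermediate to soft ratio was 0.31 (0.25 to 0.37), above that of 89.4% of genes, and stiff to intermediate was -0.12 (-0.18 to -0.06). In the deposited scaling, Lpl and Cebpd were the members whose intervals in these steps were both clear of 0 and on opposite sides. Lpl was highest and Cebpd lowest in the intermediate library. PLIN2 coats lipid droplets in many cell types. Plin2 stood at 9676, 10090 and 10353 normalized counts, and its stiff to soft ratio was 0.10 (0.06 to 0.14). These values depend on the scaling: relative to the median of 12 housekeeping genes, which shifts every stiff to soft ratio by -0.17, Plin2 was at -0.07, Lpl at 0.02, Adipoq at -0.56 and Ebf2 at -0.51. Scaled to total reads Plin2 was at 0.042 and scaled to the upper quartile at 0.036, both outside its interval.

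Levels of different genes were compared per kilobase of the canonical transcript. Averaged over the 3 libraries, Plin2 was highest at 4897 normalized counts per kilobase, followed by Fabp4 at 2775, Cebpa at 1175, Lpl at 1115, Adipoq at 704 and Cebpd at 439. Pparg at 146 and Ebf2 at 132 came next, and Klf15 at 11.2 and Zfp423 at 10.5 last. Plin2 and Fabp4 exceeded 97.0% and 94.3% of the 11630 annotated genes with a mean of 50 or more on this scale, and Zfp423, close to that minimum, exceeded 0.99% of them. Cebpa and Lpl changed places between libraries, at 1194 and 990 per kilobase on soft and 1178 and 1227 on intermediate plates, as did Klf15 and Zfp423. Per kilobase of all annotated exons, which counts rare long forms, Fabp4 was at 762 and Lpl at 375, Ebf2 at 89.5 stood above Pparg at 57.2, and Zfp423 at 9.37 above Klf15 at 3.78, so the order depends on the length used.

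All of these genes but Klf15 were also set against a partner or relative in the same library, which removes the size factor. The pairs were chosen after the values had been seen. For every read of Fabp5, the relative of Fabp4 that is abundant in macrophages and epidermis, there were 2.28, 1.76 and 1.08 reads of Fabp4. The ratio of stiff to soft was 0.473, or -1.08 on the log2 scale (exact conditional 95% counting interval -1.19 to -0.97). Fabp5 alone stood at 1790, 2212 and 3092 normalized counts. Reads of the 2 fatty acid carriers thus shifted toward Fabp5 at each step.

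Ebf2 to Ebf1 showed a like decline, from 0.485 reads on soft to 0.436 on intermediate and 0.325 on stiff plates, a log2 difference of -0.58 (-0.77 to -0.39). Cebpb, which encodes the early inducer C/EBP beta, stood at 2747, 3411 and 4146 normalized counts, and reads of Cebpa per read of Cebpb went from 1.14 through 0.907 to 0.730. Reads within this family thus shifted toward Cebpb. Cebpd per read of Cebpb was 0.623, 0.440 and 0.416. Zfp423 per read of Zfp521, a related zinc-finger protein that opposes it, was 0.112, 0.140 and 0.174, with a log2 difference of 0.63 (0.04 to 1.24).

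The length and GC trend bears on some of these pairs. With it subtracted, the stiff to soft ratios of Fabp4 and Fabp5 were -0.15 and 0.96, those of Ebf2 and Ebf1 -0.29 and 0.29, and those of Cebpa and Cebpb -0.15 and 0.60. For Adipoq and Plin1, the coat protein of mature fat droplets, they were -0.30 and -0.23, where their reads differed by -0.32 (-0.52 to -0.13). For Zfp423 and Zfp521 they were 0.43 and 0.07, closer than the difference of 0.63 in their reads. For Pparg and its dimer partner Rxra they were -0.06 and -0.11, where the reads differed by -0.43 (-0.65 to -0.21).

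**Figure D3:**
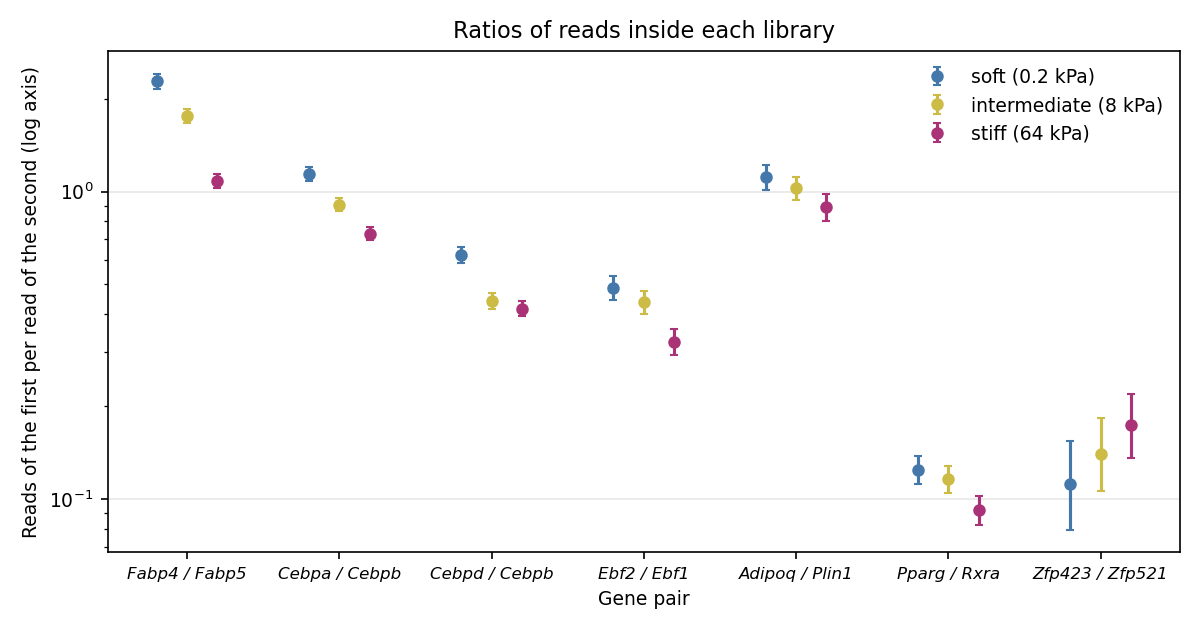
Reads of the first gene per read of the second (log axis) in each library, with exact 95% counting intervals. Fabp4 per read of Fabp5 goes from 2.28 on soft to 1.08 on stiff plates and Cebpa per read of Cebpb from 1.14 to 0.730.

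The wider adipogenic pathway was read from lists whose genes were chosen with earlier results of these data known. Among commitment and early factors, 15 of 16 genes had a mean of at least 50, and between stiff and soft 3 were higher by at least 0.5 and none lower, with a median of 0.09. The 3 were Cebpb at 0.59, Klf4 at 0.77 and Klf5 at 1.11, all of them early factors upstream of Pparg. Among inhibitors of adipogenesis 4 of 12 were higher and none lower, with a median of 0.13. These were Klf2 at 0.98 and Nr2f2 at 0.61, which repress the path, Tcf7l2 at 1.04, an effector of Wnt signalling, and Ddit3 at 0.61, which blocks C/EBP binding. Tcf7l2 stood at 294, 435 and 605 normalized counts. Wwtr1, the most abundant of the inhibitors, was lower at -0.31 (-0.36 to -0.27), and the summed level of the inhibitors was 20531, 22526 and 20027 normalized counts. Both early activators and inhibitors were thus among the genes past 0.5. The shares of each list are to be read beside the 11.8% higher and 3.77% lower over all genes.

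Genes for lipid uptake, storage and release gave 4 higher and 1 lower of 22, with a median of 0.12, where 11.8% of all genes were higher and 3.77% lower. The 1 lower gene is thus near the background share. Cd36, a fatty acid receptor also found on macrophages, stood at 8849, 11636 and 15002 normalized counts, a stiff to soft ratio of 0.76 (0.72 to 0.80). Fabp5 at 0.79, Plin4 at 0.96 and Pnpla2, the first lipase of fat droplets, at 0.80 were the others higher, and G0s2, the inhibitor of that lipase, was lower at -0.56. With the length and GC median subtracted Plin4 was at 0.41 and G0s2 at -0.47, both short of 0.5. Angptl4, a PPAR target that inhibits LPL, was at -0.01, and Gpihbp1, which anchors LPL on endothelium, had no read.

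Mature fat cell markers were present but incomplete. Of 12, Plin1, Cfd, Lipe, Car3, Aqp7 and Adipoq had a mean of at least 50, none differed by 0.5 between stiff and soft, and the median was -0.06. With 11.8% of all genes higher and 3.77% lower, a count of 0 among 6 genes is near the background. Plin1 stood at 919, 974 and 877 normalized counts, Cfd (adipsin) at 573, 502 and 602 and Lipe, the hormone-sensitive lipase, at 517, 562 and 501. Adipoq, at -0.39, had the lowest ratio of these 6. Lep, the gene of leptin, and Pck1 had no read in any library. The summed level of the 12 was 3400 normalized counts on soft, 3426 on intermediate and 3165 on stiff plates. Adipoq alone was lower on stiff than on soft plates by more than this sum was, so the other 11 together were not lower.

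**Figure D4:**
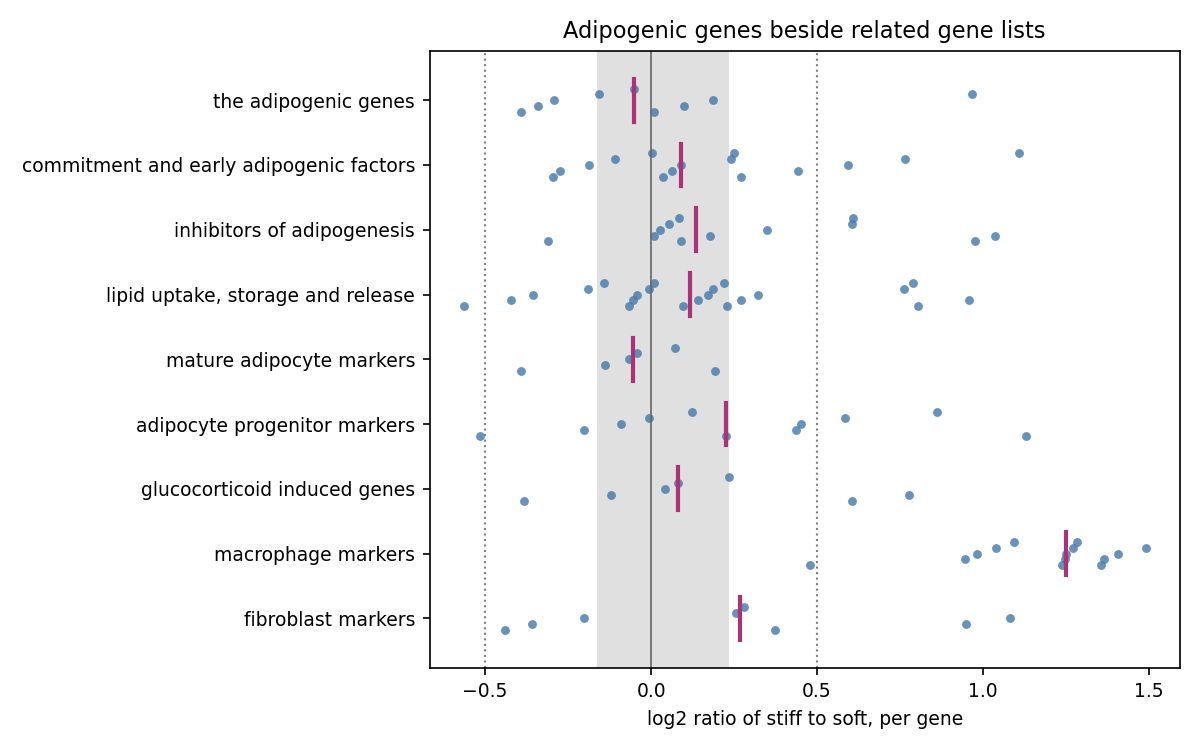
Log2 ratios of stiff to soft for the genes in each list that reach a mean of 50 (points), with list medians (bars), the middle 50% of all 11873 genes (grey) and 0.5 in size (dotted lines). The median is -0.05 for the adipogenic genes, -0.06 for mature adipocyte markers and 1.25 for macrophage markers.

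Most macrophage markers were higher on stiffer plates. Between stiff and soft 13 of 14 were higher by at least 0.5 and Fcgr1 was at 0.48, with a median of 1.25, where 11.8% of all genes were higher. Between intermediate and soft 6 of 14 were higher, with a median of 0.46, where 3.94% of all genes were higher. Between stiff and intermediate 13 of 14 were higher, with a median of 0.77, where 5.42% of all genes were higher. In that step Lpl was lower, at -0.12 (-0.18 to -0.06), and Plin2 was at 0.04, with an interval that held 0. Csf1r, the receptor that macrophages need to survive, stood at 1267, 1725 and 3359 normalized counts. Cd36, Fabp5, Plin2 and Lpl, which macrophages also express, were higher in the stiff than in the soft library as well in the deposited scaling. These 4 genes were picked after their values had been seen and are not a full set of shared genes. Other genes of the lipid list went both ways, and the list median was 0.12. Those lower included Mgll at -0.42, Abhd5 at -0.36, Dgat1 at -0.19 and Plin3 at -0.14. Those higher included Lipa at 0.32, Slc27a1 at 0.27 and Lpin1 at 0.23. The ratios of the 4, 0.76, 0.79, 0.10 and 0.19, were all below the median of the macrophage list, and reads of Lpl per read of Csf1r went from 3.21 through 2.93 to 1.38. Fabp4 and Pparg, which macrophages can also express, were lower or within counting error in the deposited scaling. The part of macrophage RNA in any of these values was not tested. Endothelial cells, a further source of Fabp4, left few reads: the summed level of 8 markers was 178, 225 and 199 normalized counts, of which Egfl7 made up 121, 146 and 111. The other 7 did not share a direction. Cdh5 had 5, 3 and 0 reads and Pecam1 12, 13 and 4, while Kdr had 21, 27 and 45, a stiff to soft ratio of 1.07 (0.32 to 1.92), Tek 13, 22 and 21 and Vwf 5, 13 and 14.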

How the data were processed

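RNA from the 3 cultures was sequenced from stranded poly(A)-selected libraries, per the labels' protocols. The submitters' processing notes name bcl2fastq 2.20.0, STAR 2.7.9a, featureCounts, Subread 2.0.1, DESeq2 1.34.0 and GRCm39 without giving their roles; the annotation release and strand setting are not given in the sources used here. The deposited signal values are gene counts that the authors divided by a size factor per library, which is how the file names describe them. The 3 deposited files were identical, and each column was assigned by its sample title. In each column 100% of values were whole multiples of the smallest (within 0.05), so reads were recovered by division.

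Ratios used a pseudocount of 1, which understates changes of low genes. A gene counted as past the fold at a log2 ratio of at least 0.5 with a mean of at least 50. No p-value is given, because each group is 1 library. Count models were not fitted, for the same reason. A count of 0 allows up to 3 reads.

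All 10 genes matched GENCODE vM39 (GRCm39) by symbol, as did 13878 of the 14291 genes whose mean reached 10. Length and GC content are those of the Ensembl canonical transcript; that length was chosen for levels per kilobase after the data had been seen. The length and GC setting subtracted the median ratio of the 200 nearest genes. Other settings were pseudocounts of 0.1 and 10, 3 scalings, other minimum means and other thresholds. The members and lists were chosen with earlier results of these data known. Every member is named; from the lists, the genes past the fold between stiff and soft, relatives of the members, the most abundant or absent markers and the nearest patterns, with a few others given as plain values after they had been seen. Calculations used scipy 1.17.1, pandas 2.3.3 and numpy 2.4.6 under Python 3.11.15, and figures matplotlib 3.10.9.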

Additional observations from a re-analysis of the deposited data

How the results depend on the processing

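No paired analysis was possible because each stiffness has 1 library, and for the same reason no replicate could be left out. The count of members past 0.5 between stiff and soft, 1 in the deposited scaling, was 3 with housekeeping scaling (Zfp423 higher, Adipoq and Ebf2 lower), 0 with the length and GC median subtracted, 0 with a mean of at least 200, 0 at a log2 threshold of 1 and 4 at 0.25. Between intermediate and soft it was 0, and 2 at 0.25. Between stiff and intermediate it was 1, and 0 with a pseudocount of 10, with each of the 3 other scalings, with the trend subtracted, with a mean of at least 200 or at a ratio of 1, and 2 at 0.25. Thresholds move these counts by construction; the cause of the other changes was not tested. Of 30 member ratios, 29 stayed inside their counting intervals when scaled to total reads or the upper quartile, 16 with housekeeping scaling, 23 with the trend subtracted and 30 with either pseudocount. Signs changed in 2, 2, 4, 4 and 0 of them, in that order, and none of these had reached 0.5. The 1 ratio outside its interval with total reads or the upper quartile was that of Plin2 between stiff and soft. Depth limits Klf15 (27 to 29 reads) and Zfp423 (42 to 83 reads) most.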

Other observations

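Markers of adipocyte progenitors gave a mixed picture. Of 12, 11 had a mean of at least 50, and between stiff and soft 3 were higher by at least 0.5 and 1 lower, with a median of 0.23, where 11.8% of all genes were higher and 3.77% lower. F3 (CD142), which marks a precursor subset described as restraining adipogenesis, stood at 700, 625 and 1534 normalized counts, and Anxa3 at 3898, 3755 and 7082. Both were high in the stiff library alone. Icam1 was at 0.58 and the protease gene Fap at -0.52, or 0.45 and -0.38 with the length and GC median subtracted, while Pdgfrb (-0.01) and Ly6a (0.23) differed less. Dpp4, a marker of early interstitial progenitors, had 1, 0 and 2 reads.

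Markers of brown and beige fat were mostly near 0: Ucp1 and Cox8b had no read, and Dio2, the deiodinase, at 1519, 1445 and 1102 normalized counts, and Prdm16, at 56.4, 77.3 and 60.5, were the 2 of 8 with a mean of at least 50. Of 8 genes induced by glucocorticoids, as Klf15 and Cebpd are, 7 had that mean, with a median of 0.08 between stiff and soft and 0.28 between intermediate and soft. Between stiff and soft 2 were higher by at least 0.5 and none lower, where 11.8% of all genes were higher and 3.77% lower. Per1 (0.78, or 0.29 with the length and GC median subtracted) and Dusp1 (0.61) were the 2. Errfi1 was at -0.38 (-0.42 to -0.35), and at -0.67 between stiff and intermediate, while the interval of Fkbp5, at -0.12, held 0.

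Genes most alike in pattern were sought by the distance between pairs of log2 ratios over the 3 libraries, among 10910 genes whose mean reached 100. Stn1, Hmgcs1 and Parn were nearest to Adipoq, Id3, Rpl39 and Etnk1 to Fabp4, Rab29, Tmem203 and Endog to Ebf2, and Zbtb37, Tctn1 and Khnyn to Lpl. With 3 libraries such likeness is common: 326 genes lay within a distance of 0.1 of Adipoq, 888 of Fabp4 and 152 of Lpl.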
